A study of Drosophila melanogaster with 6 samples.

Results

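The 10 synaptic vesicle release genes *nSyb*, *Syx1A*, *Snap25*, *Syt1*, *cpx*, *unc-13*, *brp*, *Syn*, *VGlut* and *VAChT* were chosen by symbol from a table of 17208 genes, and all 10 were found and had enough reads to be tested. Whole *Drosophila melanogaster* embryos of 2 genotypes, kept at 25 °C until 16-20 h old, gave the RNA. The *ft* null embryos (n = 4 libraries) carried the allele pair ftfd5-5/ftX13 and are called null mutants by the submitters. *ft* (*fat*) encodes a very large cadherin with roles in tissue polarity and in growth control through Hippo signalling. The wild type embryos (n = 2 libraries) were of the strain w1118, which lacks part of the eye pigment gene *white*. The labels do not state how mutant embryos were picked from their siblings, how many were pooled, or whether each library was its own collection. P-values thus cover only the spread among these 6 libraries, possibly technical, and the effect of strain background and that of the *ft* alleles cannot be told apart.

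A nerve terminal stores its transmitter in vesicles that fuse with the plasma membrane when calcium enters. Fusion is driven by the SNARE proteins, of which neuronal Synaptobrevin (*nSyb*) sits on the vesicle and Syntaxin 1A (*Syx1A*) and SNAP-25 (*Snap25*) on the plasma membrane. Synaptotagmin 1 (*Syt1*) is the calcium sensor, Complexin (*cpx*) holds back premature fusion, Unc-13 primes vesicles for release, Bruchpilot (*brp*) builds the dense body of the active zone, and Synapsin (*Syn*) tethers reserve vesicles. VGlut loads vesicles with glutamate, the transmitter of fly motor neurons, and VAChT loads acetylcholine, the main excitatory transmitter of the fly central nervous system. In the last hours of embryonic development these genes are active in differentiated neurons as synapses become functional.

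The deposited table held between 21261928 and 29151981 estimated counts per library. *ft*, the check on the labels, averaged 30.1 ± 1.63 CPM over the *ft* null libraries and 44.8 ± 2.17 CPM over the w1118 libraries (SD, n = 4 and n = 2), where CPM is the count scaled to the library's size and TMM factor. It fell by 0.57 on the log2 scale (SE 0.106, edgeR adjusted p = 0.0249). Leaving out *ft* null replicate 2, 3 or 4 ended that call (edgeR adjusted p = 0.1, 0.0659 and 0.0563), as did leaving out w1118 replicate 1 or 2 (0.0729 and 0.127), while the log2 fold change stayed between -0.62 and -0.52. The part of the gene that the alleles alter is not stated in the labels. Neurons were present in every library, since all 10 neuron markers examined were detected in all 6.

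None of the 10 release genes passed the threshold, an edgeR quasi-likelihood test with Benjamini-Hochberg adjusted p under 0.05 over all 11542 genes tested, against 4.3% of all genes tested. At an unadjusted p under 0.05, 4 of the 10 were lower in *ft* null and 0 were higher, against 10.2% and 9.92% of all genes. The 4 were *unc-13*, *VGlut*, *Syx1A* and *Snap25*, and they were also the 4 genes whose *ft* null libraries all lay below both w1118 libraries, a separation shown by 16.4% of all genes. limma voom called 0 of the 10, against 2.33% of all genes lower and 2.21% higher. DESeq2 called *unc-13* as lower (adjusted p = 0.03) and 0 as higher, against 3.92% and 4.48% of all genes. In bulk RNA of whole embryos, fewer neurons and less RNA per neuron cannot be told apart.

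**Figure D1:**
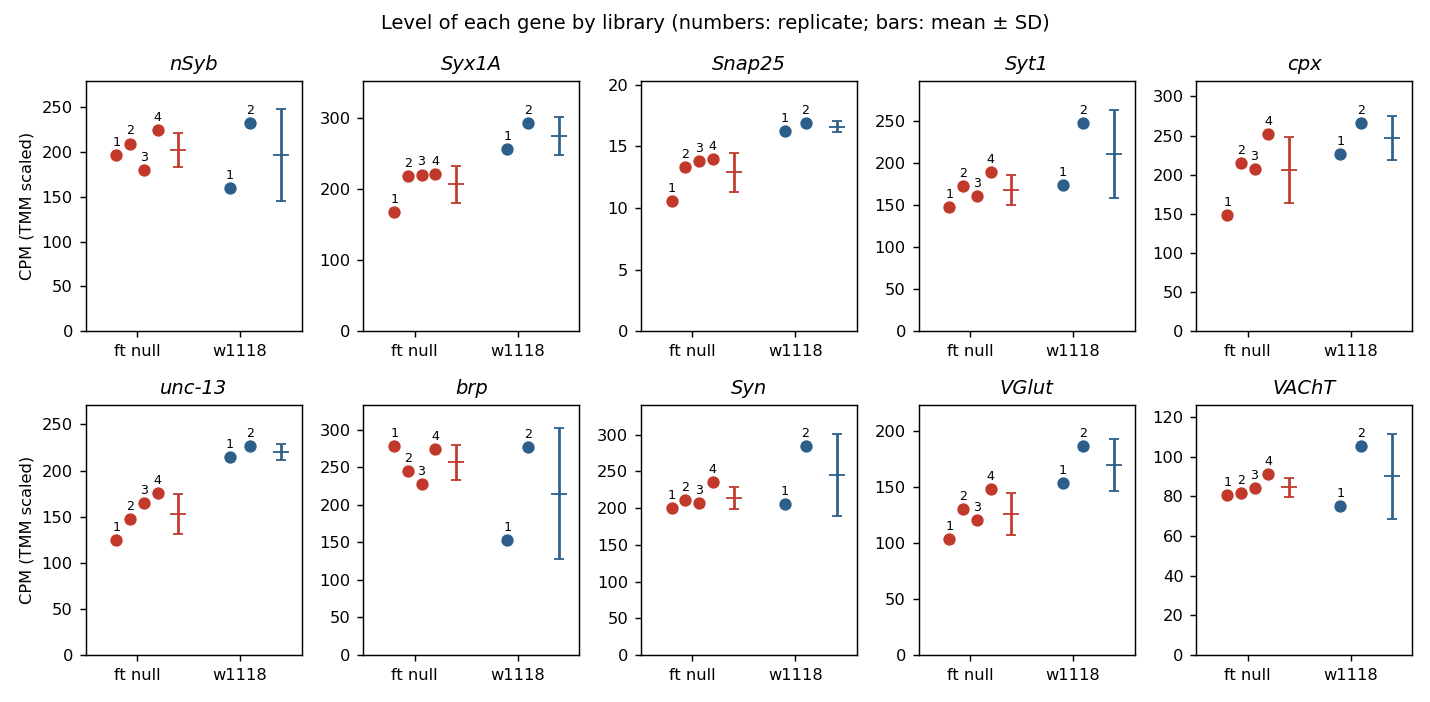
Level of the 10 release genes in each library, in CPM after TMM scaling on a linear axis from 0, with *ft* null left of w1118. Points are libraries numbered by replicate and bars give the mean and SD. For *unc-13*, *Syx1A*, *Snap25* and *VGlut* every *ft* null point lies below both w1118 points, whereas for *brp* and *nSyb* the w1118 libraries lie far apart and enclose most or all of the *ft* null points.

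Of the SNARE genes, *nSyb* showed little difference, whereas the genes of its partners on the plasma membrane were lower in every *ft* null library. *nSyb* was at 197, 209, 179.9 and 224 CPM in *ft* null replicates 1 to 4, against 160.0 and 233 CPM in w1118 replicates 1 and 2. The mutant values lay between the controls, and the log2 fold change of 0.05 (95% interval -0.34 to 0.43) allows a moderate change in either direction. *Syx1A* was at 168, 218, 220.0 and 220.2 CPM in *ft* null, against 256 and 293 CPM in w1118. Replicates 2 to 4 of *ft* null were nearly equal and replicate 1 stood well below them, and the highest mutant library was below the lowest control. Its log2 fold change was -0.41 (95% interval -0.74 to -0.08, edgeR adjusted p = 0.166). *Snap25* was by far the least abundant, at 10.5, 13.3, 13.8 and 13.9 CPM in *ft* null, against 16.3 and 16.9 CPM in w1118. Again the groups did not overlap and *ft* null replicate 1 was lowest, with a log2 fold change of -0.36 (95% interval -0.72 to -0.01, edgeR adjusted p = 0.242).

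*nSyb* and *Snap25* each have a relative used in secretion by cells of all kinds, which gives a comparison within each library. *Snap24*, another SNAP-25 family gene, averaged 108 ± 2.62 CPM in *ft* null and 108 ± 5.81 CPM in w1118 (SD, n = 4 and n = 2). *Syb*, the general synaptobrevin gene, averaged 101 ± 4.85 CPM in *ft* null and 90.1 ± 6.81 CPM in w1118. The ratio of *Snap25* to *Snap24* was 0.0984, 0.125, 0.133 and 0.126 in *ft* null, against 0.157 and 0.152 in w1118. All 4 mutant ratios were lower, by 0.37 on the log2 scale, and the two-sided exact permutation test gave p = 0.0667, the smallest that 4 against 2 libraries allow, and 0.2 after adjustment over 3 ratios. For *nSyb* to *Syb* the ratio was 1.86, 1.98, 1.85 and 2.30 in *ft* null, against 1.69 and 2.73 in w1118, where the controls enclosed the mutants (exact p = 0.733, adjusted 0.733).

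The calcium sensor and the fusion clamp had lower mean levels in *ft* null with overlapping groups. *Syt1* was at 148, 172, 161 and 189.5 CPM in *ft* null, against 174 and 248 CPM in w1118. Only *ft* null replicate 4 exceeded the lower control, and the log2 fold change was -0.33 (95% interval -0.71 to 0.05, edgeR adjusted p = 0.309). *cpx* was at 149, 215, 208 and 252 CPM in *ft* null, against 227 and 266 CPM in w1118. It varied most among the mutants, 1.69-fold between replicates 1 and 4, and its log2 fold change of -0.26 (95% interval -0.71 to 0.19) carried an edgeR adjusted p of 0.507.

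At the active zone, the priming factor and the scaffold gene stood on opposite sides of 0. *unc-13* had the largest and most separate difference of the 10, with 125, 147, 165 and 175 CPM in *ft* null, against 214 and 226 CPM in w1118. The w1118 libraries were close together and the highest mutant library was well below them. Its log2 fold change was -0.52 (SE 0.146, 95% interval -0.86 to -0.19, edgeR adjusted p = 0.0904), a level 0.695 times that of w1118. *brp* was at 278, 246, 228 and 274 CPM in *ft* null, against 153 and 277 CPM in w1118. The mutants resembled w1118 replicate 2 and exceeded w1118 replicate 1, and the control spread of 1.81-fold was the widest of the 10. The log2 fold change of *brp* was 0.26 (95% interval -0.26 to 0.77, edgeR adjusted p = 0.568), but -0.11 without w1118 replicate 1 and 0.75 without w1118 replicate 2 (edgeR adjusted p = 0.0899).

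The ratio of *brp* to *unc-13*, a pair picked after the values were seen and so given with no test, was 2.22, 1.67, 1.39 and 1.57 in *ft* null, against 0.713 and 1.22 in w1118. Every mutant library had the higher ratio, on average by 0.85 on the log2 scale, with 0.46 to 1.24 when single libraries were left out. *ft* null replicate 1 had the highest ratio and w1118 replicate 1 the lowest.

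*Syn* was at 200.4, 211, 207 and 235 CPM in *ft* null, against 205 and 284 CPM in w1118. *ft* null replicates 2 to 4 exceeded w1118 replicate 1, and none reached w1118 replicate 2. Its log2 fold change was -0.20 (95% interval -0.54 to 0.15, edgeR adjusted p = 0.508), and 0.06 without w1118 replicate 2.

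Of the vesicular transporters, the glutamate transporter gene was lower in every *ft* null library and the acetylcholine transporter gene was not. *VGlut* was at 103, 130.4, 120.4 and 148 CPM in *ft* null, against 153 and 186 CPM in w1118. Groups did not overlap, though *ft* null replicate 4 came close to w1118 replicate 1, and the log2 fold change was -0.44 (95% interval -0.80 to -0.07, edgeR adjusted p = 0.178). *VAChT* was at 80.9, 81.7, 84.3 and 91.3 CPM in *ft* null, against 75.0 and 105 CPM in w1118. The mutants varied least of all 10 genes, 1.13-fold, and lay between the controls, with a log2 fold change of -0.09 (95% interval -0.43 to 0.25), and 0.18 without w1118 replicate 2. The ratio of *VGlut* to *VAChT* was 1.27, 1.595, 1.43 and 1.62 in *ft* null, against 2.04 and 1.77 in w1118. It was lower in all 4 mutant libraries, by 0.37 on the log2 scale (two-sided exact permutation p = 0.133, adjusted over 3 ratios 0.2), where 4 against 2 libraries cannot go below 0.0667.

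**Figure D2:**
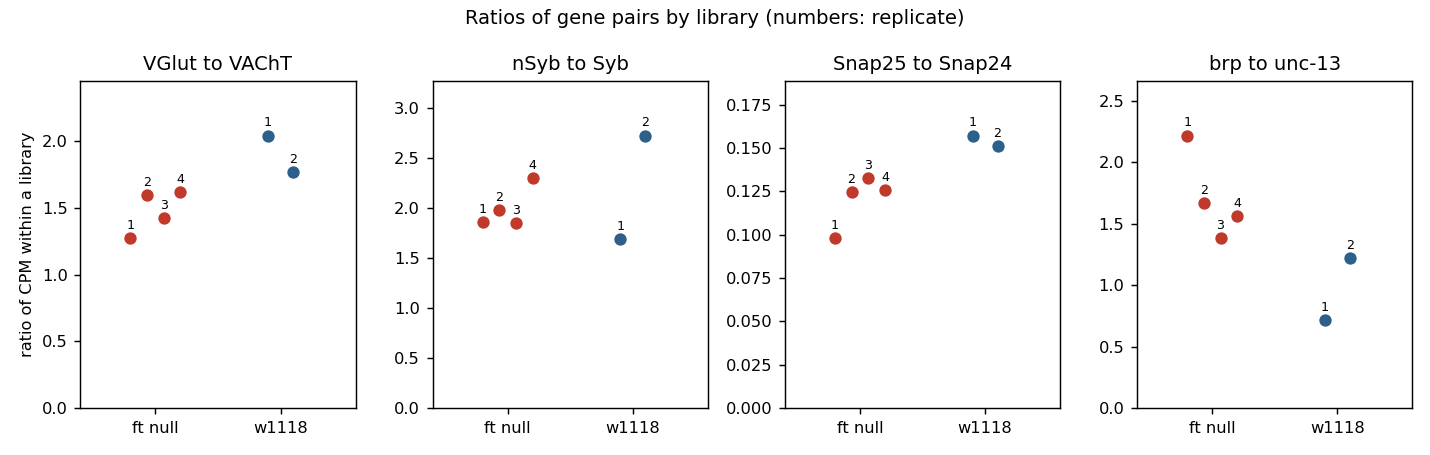
Ratio of CPM between 2 genes within each library, on linear axes from 0, with *ft* null left of w1118 and points numbered by replicate. *VGlut* to *VAChT* and *Snap25* to *Snap24* are lower in all 4 *ft* null libraries, *brp* to *unc-13* is higher in all 4, and for *nSyb* to *Syb* the w1118 points enclose the *ft* null points.

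Across the 10 genes the median log2 fold change was -0.295, with 8 estimates below 0, beside a median of 0.01 and 48.1% below 0 over all genes tested. Leaving out *ft* null replicate 1 or 4, or either w1118 library, moved this median more than the scaling did. It was -0.298 with RLE size factors and -0.33 with total counts, but -0.22 without *ft* null replicate 1 and -0.383 without *ft* null replicate 4. Without w1118 replicate 1 it was -0.40, and without w1118 replicate 2 it was -0.09. Without *ft* null replicate 2 or 3 the median was -0.312 and -0.288, a smaller shift than with total counts. With *ft* null replicate 1 and w1118 replicate 2 both left out, an alternative added after the data were seen, it was -0.01. There *brp* was called higher (log2 fold change 0.70, edgeR adjusted p = 0.0244), in a fit that assumes the lone control varies like the mutants. *unc-13*, *Syx1A*, *Snap25* and *VGlut* kept negative estimates in all 14 alternative fits, and that of *unc-13* ran from -0.70 to -0.41. *Syt1* and *cpx* also stayed below 0, but *Syt1* was at -0.047 without w1118 replicate 2 and *cpx* at -0.13, and at -0.005 and -0.021 when *ft* null replicate 1 was left out as well.

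**Figure D3:**
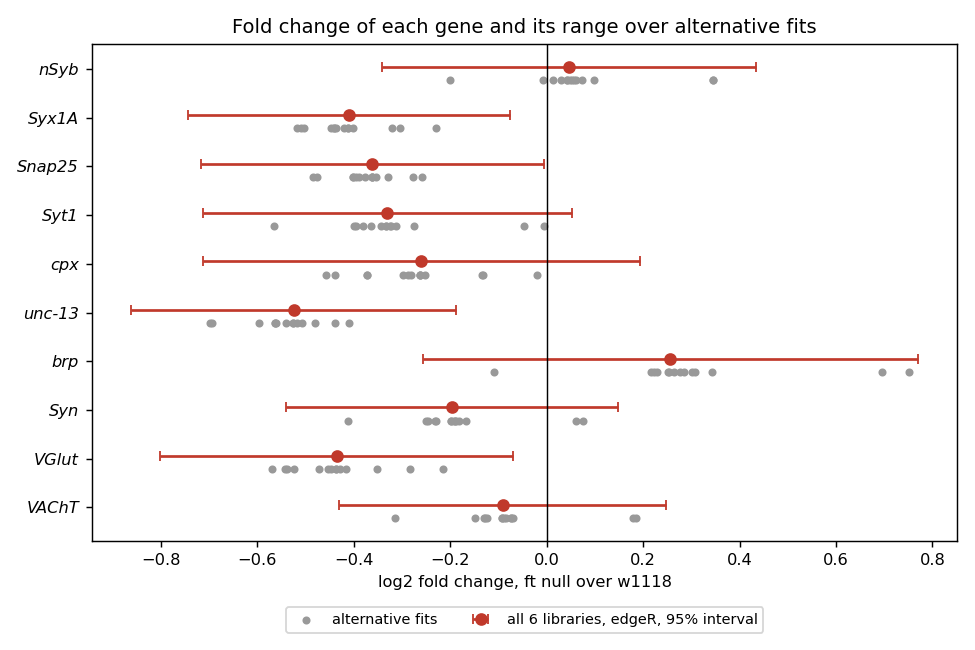
Log2 fold change of *ft* null over w1118 for each release gene. Red points and bars give the edgeR estimate over all 6 libraries with its 95% interval, and grey points the 14 alternative fits. *unc-13*, *Syx1A*, *Snap25* and *VGlut* stay left of 0 throughout, whereas the grey points of *nSyb*, *brp*, *Syn* and *VAChT* lie on both sides.

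Libraries ranked alike for most of the 10 genes. *ft* null replicate 1 was the lowest mutant library for 8 of them and *ft* null replicate 4 the highest for 9, while w1118 replicate 2 was the highest of all 6 libraries for 9. *brp* was the exception to the last 2 counts, with its highest value in *ft* null replicate 1. Summed over the 10 genes, the level was 1458.5, 1644, 1588 and 1824 CPM in *ft* null, against 1633 and 2135 CPM in w1118, so that w1118 replicate 1 lay within the mutant range. The spread between the w1118 libraries differed from gene to gene. w1118 replicate 2 was 1.04-fold, 1.06-fold, 1.15-fold and 1.18-fold above replicate 1 for *Snap25*, *unc-13*, *Syx1A* and *cpx*. The same contrast was 1.40-fold for *VAChT*, 1.43-fold for *Syt1*, 1.45-fold for *nSyb* and 1.81-fold for *brp*. The 10 genes had 222 to 7870 reads per library, a counting SD of 6.71% at the lowest and 1.13% at the highest. *Snap25* had the fewest reads, 501 and 369 in w1118, and its contrast between those libraries was within counting error.

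Levels were compared between genes as CPM per kb of annotated exon. In *ft* null, *nSyb* at 49.7 ± 4.63 and *Syx1A* at 49.6 ± 6.22 CPM per kb led, followed by *Syn* at 36.8 ± 2.60 (SD, n = 4 each). *Syt1* at 23.3 ± 2.46, *VGlut* at 21.9 ± 3.27, *brp* at 19.2 ± 1.78 and *cpx* at 18.0 ± 3.74 CPM per kb formed a middle group in which neighbours overlapped in their libraries. Below them were *VAChT* at 11.9 ± 0.668, *unc-13* at 6.77 ± 0.972 and *Snap25* at 5.66 ± 0.70 CPM per kb, and the last 2 overlapped. In w1118, *Syx1A* led at 65.9 ± 6.30 CPM per kb and *nSyb* stood at 48.2 ± 12.6 (SD, n = 2 each), and *Snap25* was again lowest at 7.27 ± 0.20 CPM per kb. *unc-13* depends most on the length used, with 6.77 CPM per kb of all its exons and 11.9 CPM per kb of its longest transcript in *ft* null, where it ranked ninth with either. In w1118 it had 9.75 CPM per kb of all exons, below *VAChT*, and 17.1 CPM per kb of its longest transcript, above *VAChT* at 12.7.

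The genes lie on several chromosome arms, with *Syt1* and *VGlut* on 2L, the arm that also holds *ft*. In dm6 coordinates, *nSyb* (FBgn0013342) lies on 3L from 1630348 to 1637752, *Snap25* (FBgn0011288) on 3L from 24074180 to 24299205, *Syt1* (FBgn0004242) on 2L from 2772327 to 2799979 and *VGlut* (FBgn0031424) on 2L from 2400295 to 2410662. *brp* (FBgn0259246) is on 2R from 9503765 to 9541565 and *unc-13* (FBgn0025726) on chromosome 4 from 867824 to 912331. On 3R are *Syx1A* (FBgn0013343) from 24101600 to 24105763, *cpx* (FBgn0041605) from 4280221 to 4304604, *Syn* (FBgn0004575) from 10190689 to 10222442 and *VAChT* (FBgn0270928) from 18705501 to 18718916. *Snap25* is extreme in its layout, with 2282 bp of exon in a span of 225026 bp, whereas *Syx1A* is all exon over its 4164 bp.

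Several share exon sequence with another gene, and the library kit does not mark strand, so reads in the shared part are split by a model. *Syx1A* shares 447 bp, 10.7% of its exons, with *eIF4EHP*, a translational repressor gene on the same strand that contains it. *eIF4EHP* was at 49.8, 52.3, 54.0 and 48.5 CPM in *ft* null, against 50.4 and 44.4 CPM in w1118, with none of the separation seen in *Syx1A*. *VAChT* lies inside *ChAT*, the gene of the acetylcholine-making enzyme, with 606 bp shared. *ChAT* was at 24.7, 35.5, 30.9 and 37.5 CPM in *ft* null, against 35.9 and 43.6 CPM in w1118 (log2 fold change -0.30, edgeR adjusted p = 0.391). *unc-13* overlaps the antisense RNA asRNA:CR43425 over 3528 bp, 15.6% of its exons, but that RNA was assigned at most 10 reads in any library. A second antisense RNA and a pseudogene overlap *unc-13* by 705 and 1463 bp and had log2 fold changes of 0.05 and -0.32 that did not pass (edgeR adjusted p = 0.945 and 0.455). *Syn* shares 249 bp with *Timp* on the opposite strand and *VGlut* 39 bp with CG18641. *Timp* was at 83.2, 95.5, 84.9 and 82.8 CPM in *ft* null, against 108.8 and 105.9 CPM in w1118. All its mutant libraries lay below both controls (log2 fold change -0.31, edgeR adjusted p = 0.155). CG18641 had a log2 fold change of 0.24 (edgeR adjusted p = 0.372). Part of any difference in these short shared stretches cannot be assigned.

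The rest of the release pathway, with SNARE genes of general secretion beside it, was examined in 5 lists. They hold 81 genes, of which 80 were in the table and tested. All 80 are called pathway genes below, though 21 are the general secretion genes, of which 10 had estimates below 0 (median 0.05). Of these 80, 1 fell, 0 rose and 79 did not pass, against 2.15% of all genes lower and 2.15% higher. At an unadjusted p under 0.05, 7 were lower and 2 higher, against 10.2% and 9.92% of all genes. limma voom called 1 lower and 0 higher, against 2.33% and 2.21%, and DESeq2 called 1 lower and 1 higher, against 3.92% and 4.48%. The median log2 fold change of the 80 was -0.09, with 57 estimates below 0, against 48.1% of all genes.

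The gene that fell was *Rim*, an active zone organiser that binds Rab3 and calcium channels and works with Unc-13 in vesicle priming. *Rim* was at 79.4, 86.5, 79.5 and 85.0 CPM in *ft* null, against 114 and 136 CPM in w1118. The mutant libraries were close together and far below both controls, a log2 fold change of -0.60 (SE 0.112, 95% interval -0.86 to -0.34, edgeR adjusted p = 0.0266). *Rim* no longer passed when *ft* null replicate 2, 3 or 4 was left out (edgeR adjusted p = 0.0847, 0.0937 and 0.0556), or w1118 replicate 2 (adjusted p = 0.128). Its log2 fold change was -0.62, -0.58, -0.61 and -0.46 in these 4 fits. With replicates 1 and 2 alone *Rim* did not pass either, with a block for replicate or without (edgeR adjusted p = 0.117 and 0.158). Its log2 fold change was -0.59 in both. The other 13 active zone and calcium channel genes did not pass. The list median was -0.15, with 11 of 14 below 0, against 48.1% of all genes. Among those named after their values were seen, *Liprin-alpha*, a scaffold gene, was at 158, 142, 129 and 136 CPM in *ft* null, against 93.2 and 143 CPM in w1118, a w1118 split like that of *brp*. The RIM-binding protein gene *Rbp* had a log2 fold change of 0.03 and the calcium channel gene *cac* of -0.21 (edgeR adjusted p = 0.947 and 0.53).

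Of 15 SNARE assembly and recycling partners, other synaptotagmins included, 0 passed and 14 were below 0, against 4.3% and 48.1% of all genes. Their median log2 fold change was -0.19. *Rop*, which encodes the Sec1/Munc18 partner of Syntaxin 1A and had the highest level of this list, was at 297, 307, 318 and 330.4 CPM in *ft* null, against 309 and 356 CPM in w1118. Its groups overlapped, with a log2 fold change of -0.09 (edgeR adjusted p = 0.727). None of 14 tested genes of vesicle endocytosis passed, against 4.3% of all genes, with a median of 0.01. The clathrin heavy chain gene *Chc* led that list, with means of 663 ± 11.4 CPM in *ft* null and 646 ± 47.8 CPM in w1118 (SD, n = 4 and n = 2).

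Among 16 genes of transmitter synthesis, loading and uptake, 0 passed and 15 were below 0, against 4.3% and 48.1% of all genes. Their median log2 fold change was -0.26. In this list 6 genes had all mutant libraries below both controls, against 16.4% of all genes. *VGAT*, the vesicular GABA transporter gene, named after its values were seen, was at 27.1, 36.0, 39.0 and 37.6 CPM in *ft* null, against 44.0 and 54.6 CPM in w1118. Its log2 fold change of -0.50 (edgeR adjusted p = 0.147) was close to that of *VGlut*, and the difference between them was not tested. *Ddc*, the decarboxylase gene of dopamine and serotonin synthesis, which the epidermis also uses, averaged 267 ± 69.0 CPM in *ft* null and 263 ± 38.9 CPM in w1118 (SD, n = 4 and n = 2).

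The 21 SNARE genes of general secretion had a median log2 fold change of 0.05. Of them 10 had estimates below 0 and 0 were called, against 48.1% and 4.3% of all genes. *Syx5*, a Golgi syntaxin gene with the highest level among them, averaged 139 ± 4.30 CPM in *ft* null and 149.5 ± 2.72 CPM in w1118 (SD, n = 4 and n = 2), a log2 fold change of -0.10.

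**Figure D4:**
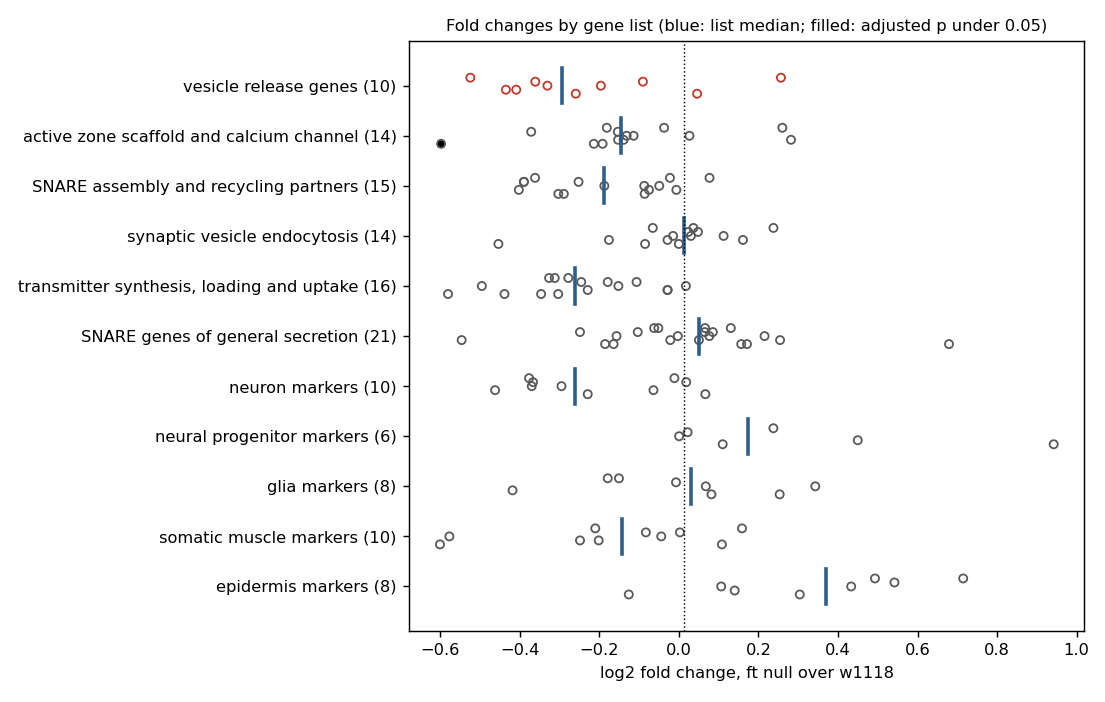
Log2 fold change of *ft* null over w1118 for every tested gene of each list, with the number of genes in brackets. Blue bars are list medians, the dotted line is the median of all genes, and a filled point passed the threshold. *Rim* is the 1 filled point, and the medians of the release genes, transmitter genes and neuron markers lie at -0.295, -0.262 and -0.262.

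Neuron markers gave figures much like those of the release genes. Their median log2 fold change was -0.26, with 8 of 10 below 0, against 48.1% of all genes. Of the 10, 0 were called, against 4.3% of all genes, and 2 were lower at an unadjusted p under 0.05, against 10.2%. All mutant libraries lay below both controls for 4 of 10 neuron markers, as for 4 release genes, against 16.4% of all genes. The same held for 4 of 10 somatic muscle markers and for 0 glial, progenitor or epidermal markers. In the other direction, all mutant libraries lay above both controls for 4 of 8 epidermal, 3 of 6 progenitor and 1 of 8 glial markers. This was so for 0 neuron or muscle markers and for 15.1% of all genes. The neuron marker median was -0.016 without w1118 replicate 2, and 0.021 when *ft* null replicate 1 was left out as well. The summed neuron marker level was 1521 to 1779 CPM in *ft* null, against 1505 and 2238 CPM in w1118, and no marker was at 0 in any library. *elav*, the classic panneuronal marker, named after its values were seen, was at 91.1 to 101 CPM in *ft* null, against 95.3 and 89.0 CPM in w1118, a log2 fold change of 0.07. *Appl*, the neuronal amyloid precursor gene and the most abundant marker, was at 502, 529, 458 and 556 CPM in *ft* null, against 424 and 831 CPM in w1118. Its log2 fold change of -0.30 (edgeR adjusted p = 0.536) became 0.27 without w1118 replicate 2.

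No marker of other cells passed the threshold, which 4.3% of all genes did. Neural progenitor markers summed to 284 to 430 CPM in *ft* null, against 217 and 245 CPM in w1118. All 6 log2 fold changes were at or above 0 (median 0.17). They were largest for *pros*, which had the highest level of this list, and for *mira* (0.45). *wor* was at 0.24, *dpn* at 0.11, *insc* at 0.02 and *ase* at 0.0005. *pros*, which acts in dividing precursors and in glia, was at 237, 167, 173 and 145 CPM in *ft* null, against 80.5 and 107 CPM in w1118. It was nearest to a call (log2 fold change 0.94, edgeR adjusted p = 0.0532) and passed under some alternatives but not others. It was called by DESeq2 (adjusted p = 0.00102), limma voom (0.0447), total-count scaling (0.0483), no filter (0.0334) and the replicate block (0.0445), and by edgeR without *ft* null replicate 1 (0.0193) or 4 (0.0426). With edgeR *pros* did not pass without *ft* null replicate 2 or 3 (adjusted p = 0.115 and 0.124). The same held for RLE size factors (0.0553) and replicates 1 and 2 alone without a block (0.0633). Nor did *pros* pass without w1118 replicate 1 or 2, at log2 fold changes of 0.75 and 1.17. Epidermal markers summed to 11199.8 to 14671 CPM in *ft* null, against 8581 and 10582 CPM in w1118, with a median of 0.37. *verm*, *serp* and *Gasp* had the highest levels of this list and make up most of the sum. Its log2 fold changes ran from -0.126 for *grh* to 0.715 for *kkv*, with *cora* at 0.11 and *knk* at 0.14. Glial markers summed to 1389 to 1752.5 CPM in *ft* null, against 1579 and 1930 CPM in w1118 (median 0.03), and somatic muscle markers to 40668 to 49264 CPM, against 45613 and 52792 CPM (median -0.14). The highest of these lists were *verm* in epidermis (log2 fold change 0.54), *nrv2* in glia (-0.15) and *Act57B* in muscle (-0.21), with edgeR adjusted p = 0.184, 0.577 and 0.486. Whether the makeup of the embryos, or their age within the 16-20 h window, has a part in the levels of the release genes was not tested.

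**Figure D5:**
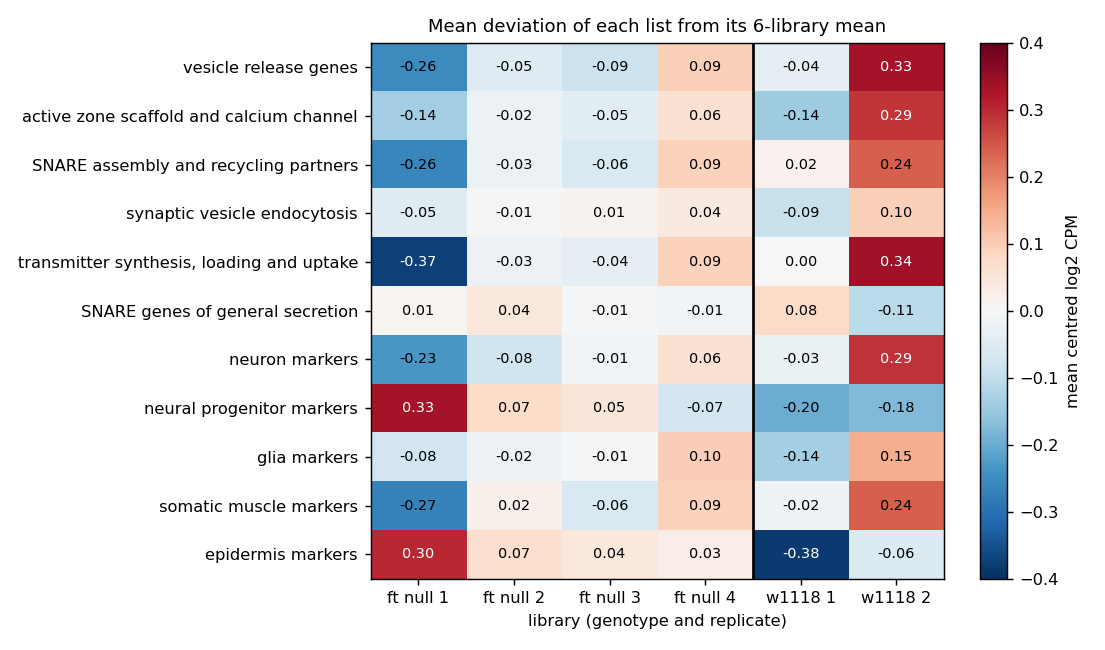
Mean deviation of each list from its 6-library mean, in log2 CPM, by library, with the 4 *ft* null libraries left of the 2 w1118 libraries. Release genes, transmitter genes, neuron markers and muscle markers are lowest in *ft* null replicate 1 and highest in w1118 replicate 2, while progenitor and epidermal markers are highest in *ft* null replicate 1.

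By library, the mean deviation of the 10 release genes from their 6-library mean was -0.26, -0.05, -0.09 and 0.09 in *ft* null, against -0.04 and 0.33 in w1118, in log2 CPM. For neuron markers it was -0.23, -0.08, -0.01 and 0.06 in *ft* null, against -0.03 and 0.29 in w1118. Progenitor markers ran the other way, at 0.33, 0.07, 0.05 and -0.07 in *ft* null, against -0.20 and -0.18 in w1118. *ft* null replicate 1 thus had the lowest release gene level together with the highest progenitor level, and w1118 replicate 2 the highest release gene level.

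Within the 10, *Syn* and *Syt1* followed the mean profile most closely, with root-mean-square differences of 0.06 in log2 CPM over 6 libraries, and *brp* least, at 0.32. Of 9786 other genes with an average log2 CPM of at least 1, the nearest to this profile were *Gyc89Db*, *Plc21C*, *Pde8*, CG9170 and *qsm*, at 0.02 to 0.03, where the median gene was at 0.27. *Gyc89Db* encodes a guanylyl cyclase subunit, *Plc21C* a phospholipase C and *Pde8* a cyclic nucleotide phosphodiesterase. Their log2 fold changes ran from -0.24 to -0.19 (edgeR adjusted p from 0.436 to 0.507), values that the likeness to the profile largely sets. Without w1118 replicate 2 they ran from -0.034 to 0.008.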

How the data were processed

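The deposited file is 1 table of estimated counts by gene for 6 libraries, to which the authors applied no normalization. The submitters' processing notes name FastQC 0.10, Trimmomatic 0.33, Salmon 1.80, edgeR and genome build dm6, without roles, options or annotation release. RNA (10 ng per library) was amplified with the SMARTer Ultra Low kit and read as 150-base pairs, per the labels' protocols.

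Estimated counts were rounded and filtered with filterByExpr. After TMM scaling, a fit with genotype as its one term was tested in edgeR 4.0.16 (R 4.3.3) by the quasi-likelihood F test, with Benjamini-Hochberg adjustment over 11542 genes. Fold changes are *ft* null over w1118, and an SE is the fold change over the square root of F. A prior count of 2 entered log2 CPM, and the common coefficient of variation was 18.2%. Ratios were tested by enumerating all 15 groupings. Alternatives were RLE and total-count scaling, no filter, DESeq2 1.42.0, limma voom 3.58.1, each library left out, and replicates 1 and 2 with and without a block. The tests were first tried on simulated counts.

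Positions and exon lengths come from Ensembl release 115, which uses dm6 coordinates. The 10 lists hold 123 entries, of which 122 matched the table. Named genes are the 10 members, each list's called genes or else its gene of highest level, *Syb* and *Snap24*, *ft*, and the 5 genes nearest to the mean profile. Members and lists were chosen with earlier results of these data known.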

Additional observations from a re-analysis of the deposited data

Results flagged for a closer look

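Among the 4 *ft* null libraries, *Syx1A* in replicate 1 stood at 168 CPM, far from the 218 to 220.2 CPM of the others. The gap was 0.958 of the group's range, above Dixon's critical value. The glial marker *nrv2* was likewise set apart in *ft* null replicate 1, at 569 CPM against 669 to 679.8 CPM (0.898 of the range). Chance flags about 1 in 20 groups, and 32 were examined.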

How the results depend on the processing

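Over 140 estimates for the release genes under alternatives, 131 kept their direction and their side of the threshold, 2 passed it and 7 changed sign. DESeq2 called 1 release gene, 2 pathway genes and 970 genes in all. Leaving out *ft* null replicate 1 and w1118 replicate 2 together, chosen after the data were seen, gave 1, 2 and 810, with *Syn* at 0.076 and *VAChT* at 0.185 on the log2 scale. Replicates 1 and 2 alone, without a block, gave 0 pathway genes and 248 genes in all, and with the replicate block 0 pathway genes and 493 genes in all; neither called a release gene. The numbers were not taken to pair the libraries, since nothing in the labels ties them. Deviations correlated at 0.153 for replicate 1 and -0.041 for replicate 2 across genes. With only 2 w1118 libraries these 2 values cannot decide whether the numbers mark shared batches. With the block, the median log2 fold change of the release genes was -0.419. The causes of these shifts were not tested.

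When single libraries were left out, release genes called stayed at 0, pathway genes called ran from 0 to 2, genes called in all from 173 to 806, and release genes below both controls (or the 1 left) from 4 to 9. The log2 fold change ran from -0.2 to 0.345 for *nSyb*, -0.109 to 0.751 for *brp*, -0.412 to 0.061 for *Syn* and -0.315 to 0.179 for *VAChT*. It ran from -0.184 to 0.024 for *Rop*, -0.037 to 0.119 for *Chc*, -0.126 to 0.185 for *Ddc*, -0.7 to 0.274 for *Appl*, -0.057 to 0.058 for *Snap24* and -0.358 to 0.008 for *Gyc89Db*. The log2 ratio difference of *nSyb* to *Syb* ran from -0.453 to 0.241, that of *VGlut* to *VAChT* from -0.472 to -0.264 and that of *Snap25* to *Snap24* from -0.416 to -0.273. With total counts *Chc* was at -0.002 and *Ddc* at -0.018, without the filter *Snap24* was at 0.004, and *Ddc* was at -0.028 with limma voom, -0.294 with the replicate block and -0.262 with replicates 1 and 2 alone. With 2 w1118 libraries, every comparison rests on little control replication.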
